A study of Mus musculus with 8 samples.

Results

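The comparison described here set the leukaemia cells of secondary-transplant mice labelled Tet2-restored directly against those of mice that kept the Tet2 knockdown and received ascorbate. It drew on 4 of the 8 libraries of the series, 2 per arm, and on the 12137 of 52459 listed genes that passed an expression filter; genes whose ranges in the arms did not meet were followed in detail. Both arms carried the same genotype, RTA shTet2: C57BL/6J marrow cells positive for cKit had been given a retrovirus with the oncogene AE9a and a hairpin against Tet2 that doxycycline switches on. Lethally irradiated C57BL/6J recipients aged 6 to 8 weeks were fed doxycycline, and 50000 leukaemia cells from the spleen of a moribund primary mouse were then passed on with 500000 support marrow cells to secondary recipients. In the labelled-restored arm doxycycline was withdrawn and the mice received PBS (mice 21 and 23). The ascorbate arm stayed on doxycycline and was given ascorbate (mice 28 and 30). As the point of reference, 3 mice stayed on doxycycline and were given PBS (mice 16, 17 and 19, the PBS knockdown mice), and 1 primary recipient (mouse 12) entered no comparison. All mice were moribund when spleens were taken. The arms differ in doxycycline, in hairpin induction and in ascorbate against PBS, and the contributions of these differences cannot be told apart. Ascorbate dose, route and duration, and whether the secondary mice received cells of the same primary leukaemia, are not given in the sources used here.

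TET2 is a dioxygenase that oxidises 5-methylcytosine in DNA and is often lost in myeloid leukaemia. Like other enzymes of its class it needs iron and 2-oxoglutarate, and ascorbate keeps the iron in its working state, so that giving back the enzyme and giving ascorbate are both used to raise oxidised 5-methylcytosine. Ascorbate also serves other dioxygenases, among them the prolyl hydroxylases that mark hypoxia-inducible factors for destruction and the histone demethylases of the Jumonji family. AE9a is a truncated splice form of the RUNX1-RUNX1T1 (AML1-ETO) fusion that gives acute myeloid leukaemia in mice.

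The 4 libraries held 18.1 to 24.6 M counts, and the PBS knockdown libraries 24 to 27.1 M. Levels are given as CPM, counts scaled to a common library total, after TMM normalization. The share of mitochondrially encoded genes was high in a single library of each arm, 14.5% (mouse 23) and 17.1% (mouse 28), against 9.49% (mouse 21) and 9.73% (mouse 30) in the others. Across genes, which are not independent replicates, log2 CPM of the libraries of an arm correlated at 0.971 in the labelled-restored arm and 0.978 in the ascorbate arm, and libraries of different arms at 0.962 to 0.972. On the second principal component of the 7 secondary libraries, which held 19.8% of the variance, the labelled-restored mice lay at 26.2 and 26.5, the PBS knockdown mice at 3.10 to 8.73 and the ascorbate mice at −31.5 and −39.7. Summed blast and progenitor markers were 553 and 647 CPM in the labelled-restored mice and 445 and 513 CPM in the ascorbate mice. The PBS knockdown mice spanned 465 to 705 CPM. These sums include Runx1t1, which alone was at 154 and 304 CPM against 133 and 129 CPM. Of the 8 tested blast markers, 5 overlapped between the arms, 2 were higher in the labelled-restored arm and 1 in the ascorbate arm. Macrophage markers summed to 52.5 and 15.8 CPM against 41.6 and 44.9 CPM, and to 114 to 136 CPM in the PBS knockdown mice, with Cd163, Marco and Timd4 at 3 counts or fewer in each library of the arms; the part of these cells in differences from the PBS knockdown mice was not tested. Endothelial and stromal markers were at 2.38 and 1.62 CPM against 4.17 and 5.12 CPM, and 3 of those 10 markers (Col3a1, Cxcl12 and Pdgfrb) had no count in either arm. In bulk libraries, fewer cells of a type and less RNA per cell cannot be told apart.

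Tet2, the target of the hairpin, lay at 14.0 and 23.1 CPM in the labelled-restored mice and at 13.6 and 11.7 CPM in the ascorbate mice. The PBS knockdown mice were at 12.7, 12.7 and 13.4 CPM. The ranges did not meet, but only mouse 23 stood clear of the other libraries beyond counting error: the 95% Poisson interval of mouse 21, 12.6 to 15.6 CPM, overlaps that of mouse 28, 11.9 to 15.5 CPM. Between the arms the Tet2 log2 fold change was 0.56 (SE 0.27, n = 2 against 2), with an adjusted p of 0.336 by edgeR's quasi-likelihood test. The Tet2 level of mouse 21 therefore does not set it apart from the knockdown libraries, and every result on the labelled-restored arm rests on that mouse and 1 other; hence the wording labelled restored. Tet1 had no count in any of the 7 secondary libraries. The upper end of its 95% Poisson interval was 0.223 CPM in mouse 28 and lower in the others (counting error only). Tet3, the remaining family member, was at 66.6 and 78.4 CPM against 61.5 and 70.8 CPM, overlapping ranges with a log2 difference of 0.13 (SE 0.18). Runx1 differed by 0.04 (SE 0.15). Runx1t1, whose symbol could also collect reads of the fusion transgene, was at 154 and 304 CPM against 133 and 129 CPM, a log2 difference of 0.81 (SE 0.27, adjusted p = 0.213 by edgeR).

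H1f0 was the only gene past the threshold of edgeR's quasi-likelihood test (1 of 12137 genes, 0.00824%). It codes for H1.0, a linker histone that binds where DNA enters and leaves the nucleosome and that, unlike most of its family, is made outside S phase and accumulates in cells that stop dividing or differentiate. Its level was 167 and 275 CPM in the labelled-restored mice and 38.4 and 36.7 CPM in the ascorbate mice. The PBS knockdown mice, at 54.0, 68.2 and 65.3 CPM, lay between the arms without touching either. H1f0 was higher in the labelled-restored arm by a log2 fold change of 2.56 (SE 0.25, adjusted p = 0.0222 by edgeR). Against the PBS knockdown mice its log2 difference was 1.82 in the labelled-restored arm (adjusted p = 0.0502) and −0.73 in the ascorbate arm (adjusted p = 0.0974, both by edgeR); these contrasts share the 3 control libraries. The call depended on single libraries: the adjusted p was 0.0524 without mouse 17, 0.101 without mouse 28 and 0.113 without mouse 30, while the log2 fold change stayed between 2.15 and 2.87 in all 18 alternatives, with adjusted p from 3.78e-26 (no filter on low counts) to 0.113. The gene lies on chromosome 15 from 79028450 to 79030504 on the plus strand (GRCm38, GENCODE vM21) and shares exonic bases with an antisense gene, Gm49544, whose reads cannot be told apart without a stated strand setting.

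The other linker histone genes with a clear signal were Hist1h1c (H1.2) and Hist1h1d (H1.3), which lie in the large histone gene cluster on chromosome 13. Hist1h1c, picked here after its values were seen, was at 160 and 228 CPM in the labelled-restored mice, 60.3 and 31.7 CPM in the ascorbate mice and from 40.4 to 77 CPM in the PBS knockdown mice. Its log2 difference between the arms was 2.08 (SE 0.37, adjusted p = 0.0939 by edgeR). Hist1h1d lay lower, at 11.1 and 6.97 CPM against 3.14 and 1.75 CPM, with a log2 difference of 1.90 (SE 0.41, adjusted p = 0.138 by edgeR). The promoters of the 3 genes are shown because these are the linker histone genes with separate ranges and higher values in the labelled-restored arm. Each sequence is the 250 bases before the RefSeq start on the plus strand (GRCm38.p6), 5′ to 3′; capitals mark the H1 box, AAACACA, and the CCAAT box, CCAAT, searched on both strands.
H1f0, chr15:79027962-79028211: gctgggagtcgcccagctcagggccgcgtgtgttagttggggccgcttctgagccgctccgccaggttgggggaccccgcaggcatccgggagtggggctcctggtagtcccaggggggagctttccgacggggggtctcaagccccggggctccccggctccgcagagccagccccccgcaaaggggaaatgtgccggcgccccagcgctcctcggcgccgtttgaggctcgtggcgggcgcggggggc
Hist1h1c (RefSeq H1f2), chr13:23738557-23738806: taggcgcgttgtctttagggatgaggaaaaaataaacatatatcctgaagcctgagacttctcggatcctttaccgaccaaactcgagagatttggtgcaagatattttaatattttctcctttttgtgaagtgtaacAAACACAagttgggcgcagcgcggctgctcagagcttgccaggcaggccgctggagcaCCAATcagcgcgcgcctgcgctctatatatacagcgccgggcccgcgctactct
Hist1h1d (RefSeq H1f3), chr13:23554782-23555031: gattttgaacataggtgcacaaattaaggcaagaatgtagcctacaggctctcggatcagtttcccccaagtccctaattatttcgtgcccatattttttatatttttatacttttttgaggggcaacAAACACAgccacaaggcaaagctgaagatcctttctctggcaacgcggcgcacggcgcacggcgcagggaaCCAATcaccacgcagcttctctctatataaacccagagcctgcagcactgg

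Hist1h1c carries the H1 box at bases 139 to 145 and the CCAAT box at bases 197 to 201 of its window. In Hist1h1d they lie at bases 129 to 135 and 200 to 204. The order of the boxes is the same in both cluster genes and their spacing differs. The H1f0 window holds neither string, but the RefSeq start it precedes lies upstream of the GENCODE start given above, and the bases between those starts were not searched. The Hist1h1d window lies inside the longer GENCODE model of that gene. Of 32851 promoter windows of this length, 6.25% hold AAACACA and 33.8% hold CCAAT; of the 10 windows of H1 genes, 5 and 7 do. A match is a description of the letters and says nothing of binding.

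The histone genes as a family, described after values had been seen, leaned the same way. The counts and medians given for the family include H1f0, Hist1h1c and Hist1h1d. Over all genes of known length, shorter ones tended to be higher in the labelled-restored arm, as described further below. The family counts and medians were not repeated with the offset for length given there. Of 49 histone genes tested, 23 had separate ranges with the labelled-restored arm higher and 4 with the ascorbate arm higher, while 22 overlapped. Among all genes tested, 44.6% had separate ranges, 23.4% with the labelled-restored arm and 21.3% with the ascorbate arm higher. The median log2 difference was 0.51 over the 49 histone genes and 0.01 over all genes. Core histone genes of the clusters made up 36 of the 49 (18 higher in the labelled-restored arm, 3 in the ascorbate arm, 15 overlapping). Variant core histones made up 7 (2, 0 and 5) and linker histones 6 (3, 1 and 2). Most cluster transcripts lack a poly(A) tail, and these libraries were made from oligo-dT selected RNA; 33 of the 36 cluster core genes had a mean under 10 CPM over the 4 libraries. Of the better covered genes, H3f3b, which codes for the replication-independent H3.3, was at 588 and 656 CPM in the labelled-restored mice and 341 and 387 CPM in the ascorbate mice. The PBS knockdown mice lay at 376, 404 and 389 CPM, so the labelled-restored arm was the one set apart. Hist1h2bc, a cluster H2B gene, stood at 46.2 and 48.6 CPM against 22.6 and 19.0 CPM. H2afz and H3f3a, by contrast, differed by 0.41 (SE 0.20) and 0.10 (SE 0.16) on the log2 scale, and only H2afz had separate ranges. Apart from H1f0, none of the 49 passed the test between the arms.

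**Figure D1:**
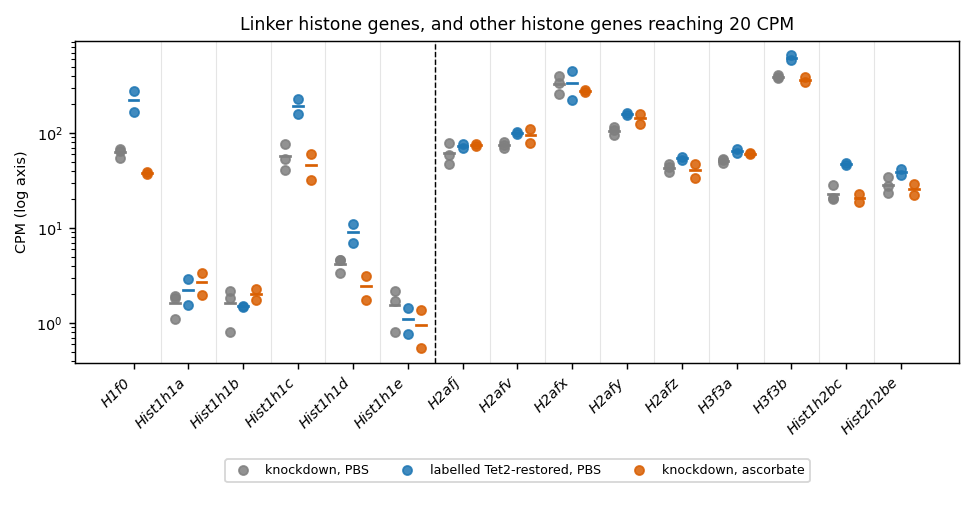
Levels of the 6 tested linker histone genes (left of the dashed line) and of other histone genes reaching 20 CPM, in CPM on a log axis; each point is a mouse, each short bar a group mean. H1f0, Hist1h1c and Hist1h1d show the labelled-restored mice above and the ascorbate mice below or among the PBS knockdown mice, and H3f3b and Hist1h2bc show the labelled-restored mice alone set apart.

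Across all genes the arms differed broadly, but few differences were secure with 2 libraries each. At an unadjusted p under 0.05, 1966 genes differed (16.2%), 1074 of them higher in the labelled-restored arm (8.85%) and 892 higher in the ascorbate arm (7.35%). After Benjamini-Hochberg adjustment edgeR called H1f0 alone and no gene higher in the ascorbate arm, whereas the Wald test of DESeq2 called 426 genes, 238 higher in the labelled-restored and 188 higher in the ascorbate arm. Separate ranges were found for 5417 genes, 2834 higher in the labelled-restored and 2583 higher in the ascorbate arm. With library totals in place of TMM the median log2 difference over all genes was 0.132, against 0.0145 with TMM, and that split became 3934 against 1439. An exact permutation test of 2 libraries against 2 cannot give a two-sided p below 0.333, so for a single gene, separate ranges are a description.

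**Figure D2:**
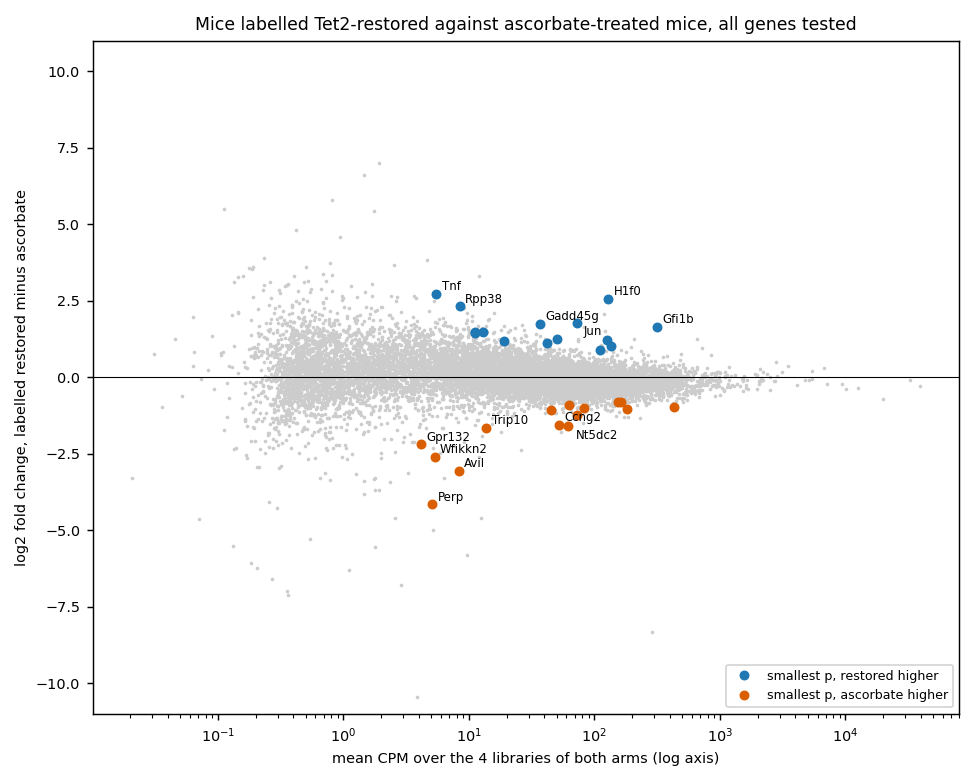
Log2 fold change between the arms (labelled restored minus ascorbate) against the mean CPM of the 4 libraries (log axis) for all 12137 genes tested. Coloured points are the 15 genes per direction with the smallest p; H1f0 stands at 2.56, and names are given for those past 1.5 in either direction.

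After H1f0, the next 14 genes by p with higher values in the labelled-restored arm had adjusted p-values of 0.0699 to 0.0916 by edgeR. All 14 were also among the 426 of 11238 genes called by the DESeq2 Wald test. That test used the same counts from which these genes were picked by p, so it is no independent check. Tnf, the inflammatory cytokine gene, was at 9.18 and 9.91 CPM in the labelled-restored mice and at 1.45 and 1.41 CPM in the ascorbate mice, a log2 difference of 2.73 (SE 0.39). The PBS knockdown mice were at 3.17, 2 and 1.86 CPM, so that Tnf stood between the arms in them. Gadd45g, a growth arrest and stress sensor gene, was at 64.2 and 48.7 CPM against 22.3 and 11.4 CPM, with 25.3 to 27.4 CPM in the PBS knockdown mice (log2 difference 1.75, SE 0.30). Jun, a subunit of the AP-1 transcription factor, was at 115 and 108 CPM against 41.6 and 23.6 CPM (1.78, SE 0.31). For Jun the PBS knockdown mice, at 69.9 to 110 CPM, overlapped the labelled-restored arm, and the ascorbate arm was lower than they were by 1.36 on the log2 scale (adjusted p = 0.0439 by edgeR). Jun shares exonic bases with its antisense gene Junos.

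Gfi1b, a repressor needed for red cell and platelet development, was the most abundant gene of this set. It stood at 623 and 328 CPM in the labelled-restored mice, 144 and 160 CPM in the ascorbate mice and 427, 428 and 443 CPM in the PBS knockdown mice. The arms did not overlap, but the labelled-restored mice lay on either side of the PBS knockdown mice, and the ascorbate arm was the one set apart: Gfi1b fell by 1.51 on the log2 scale there (adjusted p = 0.0272 by edgeR). Gp1ba, the chain of the platelet receptor complex that binds von Willebrand factor, showed 76.9 and 65.0 CPM against 30.9 and 28.8 CPM, with 55.3 to 62.4 CPM in the PBS knockdown mice. The partner genes of that complex were near absent, with Gp1bb at no count in all 4 libraries, and the megakaryocyte and platelet markers summed to 5.15 to 8.82 CPM in the 4 libraries. Slc20a1, a phosphate transporter, was at 55.7 and 58.0 CPM against 27.0 and 25.9 CPM, and Qsox2, a sulfhydryl oxidase, at 20.5 and 17.4 CPM against 7.37 and 6.41 CPM. In both, the labelled-restored mice were within or next to the range of the PBS knockdown mice, and the ascorbate arm was lower than the latter by 1.12 and 1.53 on the log2 scale (adjusted p = 0.0216 for each by edgeR). Rpp38, a protein of RNase P, was at 19.2 and 8.95 CPM against 3.20 and 2.50 CPM, and Srsf7, a splicing factor, at 207 and 154 CPM against 81.4 and 95.1 CPM. The log2 difference of the ascorbate arm from the PBS knockdown mice was −2.18 for Rpp38 and −1.30 for Srsf7 (adjusted p = 0.0290 and 0.0169 by edgeR).

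Itgb7, the integrin chain of the gut-homing receptor, followed the other course. It lay at 157 and 198 CPM in the labelled-restored mice, 88.4 and 65.8 CPM in the ascorbate mice and 87.3 to 92.9 CPM in the PBS knockdown mice, so the labelled-restored arm alone was set apart (log2 difference between the arms 1.20, SE 0.20). Nagk, a sugar kinase, Pars2, the mitochondrial prolyl-tRNA synthetase, Tldc1 and Soga1 completed the set. Their log2 differences were 1.48, 1.46, 1.20 and 0.88.

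Among genes higher in the ascorbate arm the smallest p was that of Wfikkn2, a secreted inhibitor of myostatin and related ligands. It was counted at 1.64 and 1.36 CPM in the labelled-restored mice and 9.84 and 8.49 CPM in the ascorbate mice, a log2 difference of −2.60 (SE 0.32, adjusted p = 0.0565 by edgeR). The PBS knockdown mice, at 3.94, 4.32 and 4.43 CPM, lay between the arms. Perp, a membrane protein of cell junctions and a target of p53, was at 0.246 and 0.859 CPM, 6 and 17 counts, against 9.90 and 9.53 CPM, 164 and 229 counts (log2 difference −4.16, SE 0.70). The PBS knockdown mice held 2.11, 6.81 and 2.89 CPM of Perp, a wide spread that still met neither arm. Gpr132, a receptor coupled to G proteins, was likewise lowest in the labelled-restored mice (1.52 and 1.47 CPM) and highest in the ascorbate mice (6.22 and 7.41 CPM).

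For other genes of this set the ascorbate arm lay far from the PBS knockdown mice and the labelled-restored arm near them. Ccng2, an atypical cyclin linked to cell cycle exit and FOXO factors, was at 22.9 and 29.9 CPM in the labelled-restored mice and 79.4 and 76.5 CPM in the ascorbate mice, against 20.1 to 27.9 CPM in the PBS knockdown mice. The labelled-restored mice overlapped the PBS knockdown mice, while Ccng2 rose in the ascorbate arm against them by 1.72 on the log2 scale (SE 0.19, adjusted p = 0.0103 by edgeR). Avil, which codes for the actin-binding protein advillin, went from 0.464 to 0.774 CPM in the PBS knockdown mice to 10.9 and 18.7 CPM in the ascorbate mice (log2 4.55, adjusted p = 0.00883 by edgeR), with 2.25 and 1.26 CPM, also above the PBS knockdown mice, in the labelled-restored mice. Avil shares exonic bases with Tsfm on the other strand. Trip10, Bsdc1, Rassf1 and Il17ra, the interleukin-17 receptor chain, also exceeded the PBS knockdown mice in the ascorbate arm, by 1.46, 0.89, 1.17 and 0.93 (adjusted p of 0.0256 to 0.0298 by edgeR). Of all genes tested, 1.09% rose and 1.77% fell in the ascorbate arm against the PBS knockdown mice by this test (347 genes in all, 2.86%). In the labelled-restored arm edgeR called none against them, with 3549 genes at an unadjusted p under 0.05 and 1906 called by DESeq2; a call in 1 arm only therefore says nothing of a difference between arms, which is the test given above.

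Clint1 and Nt5dc2 showed the reverse, with the ascorbate mice overlapping the PBS knockdown mice and the labelled-restored mice below them. Clint1, an adaptor of clathrin-coated vesicles, was at 308 and 269 CPM in the labelled-restored mice, 590 and 555 CPM in the ascorbate mice and 614, 445 and 474 CPM in the PBS knockdown mice. Nt5dc2 was at 35.4 and 26.1 CPM against 75.3 and 111 CPM, and at 65.1 to 93.3 CPM in the PBS knockdown mice. In Rnpep, Arid4a, Ranbp10 and Ulk1, the kinase that starts autophagy, the ascorbate mice lay above and the labelled-restored mice below all PBS knockdown mice. Their log2 differences between the arms were −1.25 (SE 0.21), −0.90 (SE 0.17), −1.04 (SE 0.16) and −1.02 (SE 0.19). Adjusted p-values of the 15 genes ran from 0.0565 to 0.102 by edgeR. All 15 passed the DESeq2 Wald test, which used the same counts they were picked from and is no independent check.

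**Figure D3:**
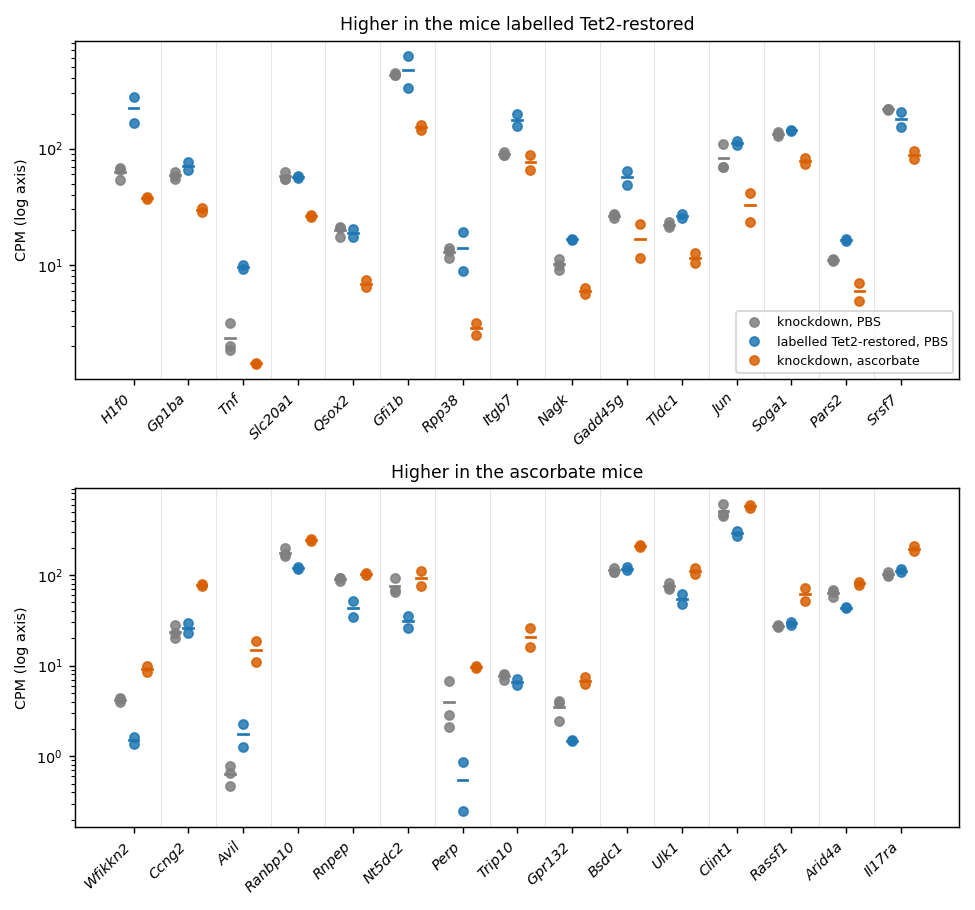
Levels of the 15 genes per direction with the smallest p between the arms, in CPM on a log axis; each point is a mouse and each short bar a group mean. The arms are apart in every gene, and the PBS knockdown mice sit with the labelled-restored arm in some (Slc20a1, Qsox2, Ccng2), with the ascorbate arm in others (Itgb7, Clint1), above both arms in Srsf7, below both in Avil and Rassf1, and between the arms in many of the rest (H1f0, Tnf, Perp).

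The position of the PBS knockdown mice divided the 5417 genes with separate ranges. In 1804 (14.9% of genes tested) the labelled-restored arm was apart from the PBS knockdown mice and the ascorbate arm overlapped them, and in 1412 (11.6%) the ascorbate arm was apart and the labelled-restored arm overlapped. Both arms lay above the PBS knockdown mice in 443 genes (3.65%) and below them in 546 (4.5%), still without meeting each other. In 917 genes (7.56%) both arms overlapped the PBS knockdown mice. The arms lay on opposite sides in 295 genes: in 191 (1.57%) the labelled-restored mice were above and the ascorbate mice below all PBS knockdown mice, and in 104 (0.857%) the order was turned.

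The genes of largest difference on opposite sides were named with a p under 0.05 and at least 5 CPM in the highest group. Where the labelled-restored arm was the upper they were Tnf, H1f0, Hist1h1d, Gadd45g, Gapdh, Trim34b, Hspa2, Nagk, Pars2 and Nuak2. Hspa2, a chaperone of the HSP70 family, was at 23.2 and 31.0 CPM in the labelled-restored mice, 6.89 and 11.7 CPM in the ascorbate mice and 18.6, 18.2 and 20.9 CPM in the PBS knockdown mice (log2 difference between the arms 1.54, SE 0.28). Nuak2, a stress-responsive kinase related to AMPK, was at 10.1 and 14.8 CPM against 5.13 and 4.2 CPM. Gapdh, at 17.2 and 12.4 CPM against 5.86 and 4.04 CPM, is uncertain, since it has many near-identical copies in the genome that could share its reads. Trim34b likewise has a near-identical neighbour. With the ascorbate arm as the upper the genes were Perp, Wfikkn2, Gpr132, Nxn, Rnpep, Exoc6b, Mbd5, Pdzd2, Ranbp10 and Acp5. Nxn, a redox-active relative of thioredoxin, was at 5.86 and 4.95 CPM in the labelled-restored mice and 12.6 and 14.6 CPM in the ascorbate mice, with 7.55 to 12.0 CPM in the PBS knockdown mice. Mbd5, a member of the methyl-CpG-binding domain family, was at 8.24 and 7.13 CPM against 17.4 and 16.9 CPM (log2 difference −1.15, SE 0.24). Acp5, the tartrate-resistant acid phosphatase, was at 105 and 54.5 CPM against 166 and 159 CPM.

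**Figure D4:**
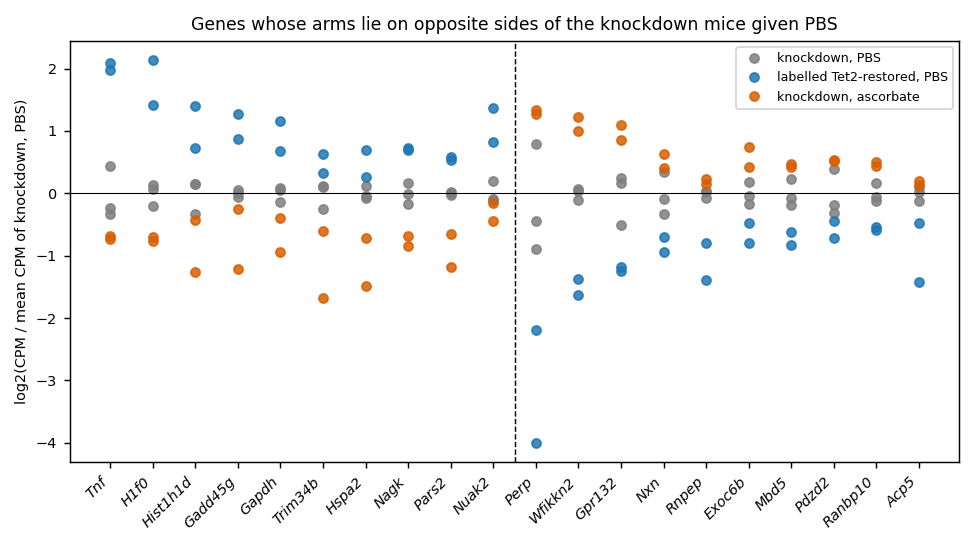
Log2 ratio of each mouse's CPM to the mean of the PBS knockdown mice for the 10 genes per direction of largest difference whose arms lie on opposite sides. Left of the dashed line the labelled-restored mice are above and the ascorbate mice below every PBS knockdown mouse, right of it the order is turned; Perp reaches the lowest values, in the labelled-restored mice.

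Gene lists were next compared by their counts and medians. No gene of any list passed edgeR's threshold between the arms, so each list is described against the 23.4% and 21.3% of all genes with separate ranges. The immediate early and AP-1 genes, which respond within minutes to growth factors and stress, had the highest median of the lists with at least 10 tested members, 0.59. Of 22 tested, 13 had separate ranges with the labelled-restored arm higher, 3 with the ascorbate arm higher, and 6 overlapped. Beside Jun, Ier5 was at 96.3 and 71.4 CPM against 53.7 and 36.2 CPM, and Dusp2, a phosphatase that turns off MAP kinases, at 26.7 and 22.4 CPM against 14.3 and 8.32 CPM. Dusp1, its relative, was at 41.2 and 21.8 CPM in the labelled-restored mice, 12.3 and 9.40 CPM in the ascorbate mice and 26.8, 71.9 and 50.6 CPM in the PBS knockdown mice. For Dusp1 the ascorbate arm was thus below the PBS knockdown mice (log2 −2.20, adjusted p = 0.0448 by edgeR), and the labelled-restored arm overlapped them.

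Type I interferon response genes had a median of 0.30, with 12 of 37 separate and higher in the labelled-restored arm, 4 higher in the ascorbate arm and 21 overlapping. Mouse 30 carried much of it: without that mouse the list median was 0.02, and without mouse 28 it was 0.66. Relative to the PBS knockdown mice the list median was −0.149 in the labelled-restored and −0.485 in the ascorbate arm. Ifi27l2a, an interferon-induced gene, was at 144 and 64.9 CPM against 54.0 and 33.3 CPM. Parp12, an interferon-induced mono-ADP-ribosyltransferase, was at 50.2 and 49.4 CPM against 37.4 and 26.1 CPM, and at 62.7 to 87.8 CPM in the PBS knockdown mice. Stat2, which carries the interferon signal to the nucleus, was at 67.6 and 67.4 CPM against 49.5 and 35.2 CPM. Cholesterol biosynthesis genes had a median of 0.19 (7 of 21 higher in the labelled-restored arm, 1 in the ascorbate arm), with the sign turned to −0.05 without mouse 21.

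Mast cell and basophil genes had median log2 differences from the PBS knockdown mice of 1.33 in the labelled-restored and 1.22 in the ascorbate arm. Between the arms 8 of the 11 tested overlapped, 3 were separate and higher in the labelled-restored arm, and the median was 0.02; it was −0.39 without mouse 28 and 0.74 without mouse 30. Fcer1a, a chain of the receptor for IgE, stood at 225 and 354 CPM in the labelled-restored mice, 151 and 93.8 CPM in the ascorbate mice and 33.6, 65.8 and 50.2 CPM in the PBS knockdown mice. Hdc, the enzyme that makes histamine, was at 396 and 587 CPM against 373 and 341 CPM. The summed markers were 1270 and 1520 CPM against 906 and 1190 CPM, with Tpsb2 at no count in all 4 libraries. From the lists of cytokine receptors and of adhesion and homing, Csf2rb2, the beta chain of the interleukin-3 receptor, was at 939 and 925 CPM in the labelled-restored mice, 488 and 303 CPM in the ascorbate mice and 323, 407 and 428 CPM in the PBS knockdown mice (log2 difference between the arms 1.24, SE 0.23, adjusted p = 0.0939 by edgeR). Its paralogue Csf2rb, the common beta chain, was at 990 and 1110 CPM against 737 and 538 CPM; reads of these near-identical genes may have been divided between them. Ccr9, a gut-homing chemokine receptor, was at 13.9 and 18.1 CPM against 5.98 and 5.08 CPM (1.54, SE 0.28). In the cytokine receptor list as a whole only 3 of 25 genes were separate and higher in the labelled-restored arm and 6 in the ascorbate arm. Il20rb, an interleukin-20 receptor chain, was at 1.93 and 4.65 CPM against 7.91 and 7.74 CPM.

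Lists of growth, metabolism and protein folding lay the other way. Hypoxia and glycolysis genes had 18 of 33 members separate and higher in the ascorbate arm, 4 in the labelled-restored arm and a median of −0.30 (−0.18 on library totals). Tpi1, a glycolytic enzyme, was at 329 and 325 CPM in the labelled-restored mice, 477 and 644 CPM in the ascorbate mice and 312 to 373 CPM in the PBS knockdown mice. Kdm3a, a histone demethylase of the Jumonji family that is induced in hypoxia, was at 64.2 and 87.9 CPM against 116 and 132 CPM. Pfkfb4, which sets the level of a glycolytic activator, was an exception, at 4.84 and 7.83 CPM against 0.302 and 1.62 CPM. Relative to the PBS knockdown mice the list median was 0.24 in the labelled-restored and 0.39 in the ascorbate arm.

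Targets of NRF2, the factor of the oxidative stress response, and redox genes had 10 of 19 members separate and higher in the ascorbate arm and 2 in the labelled-restored arm (median −0.18, but −0.06 on library totals). The 2 exceptions were Gsr, glutathione reductase, at 32.8 and 57.8 CPM against 21.9 and 20.6 CPM, and Srxn1, sulfiredoxin, at 24.1 and 29.3 CPM against 16.3 and 20 CPM. ATF4 and amino acid stress genes had 8 of 21 members higher in the ascorbate arm and 1 in the labelled-restored arm (median −0.36, but −0.10 without mouse 30 and −0.59 without mouse 28). Sesn2, a sensor of leucine and stress, was at 40.1 and 46.8 CPM against 62.2 and 75.2 CPM. Phgdh, which starts serine synthesis, was at 2.25 and 4.5 CPM against 20.4 and 20.7 CPM, but the PBS knockdown mice ranged from 3.39 to 28.0 CPM. Heat shock genes and chaperones had 9 of 18 members higher in the ascorbate arm and none in the labelled-restored arm (median −0.33, but −0.10 without mouse 30 and −0.53 without mouse 28), among them Hspa8, at 559 and 460 CPM against 627 and 797 CPM, and Hsf1, the heat shock factor, at 43.3 and 29.7 CPM against 52.4 and 56.2 CPM. Hspa2, higher in the labelled-restored arm, was not on that list. Relative to the PBS knockdown mice the heat shock median was −0.509 in the labelled-restored and −0.214 in the ascorbate arm. Iron and haem genes had 6 of 24 higher in the ascorbate arm, near the share of all genes, and 1 in the labelled-restored arm. Their median was −0.26, with −0.59 without mouse 21 and −0.05 without mouse 23; Aco1, the cytosolic aconitase that doubles as an iron sensor, was at 105 and 89.0 CPM against 234 and 127 CPM.

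Genes of G1/S and DNA replication had 18 of 43 members separate and higher in the ascorbate arm and none in the labelled-restored arm, with a median of −0.31. Prim2, a primase subunit, was at 90.1 and 84.7 CPM in the labelled-restored mice and 133 and 131 CPM in the ascorbate mice. Cdk2, the kinase of S phase entry, was at 64.7 and 61.6 CPM against 82.4 and 125 CPM. Pola1, the catalytic subunit of polymerase alpha, was at 114 and 53.1 CPM against 142 and 222 CPM; the PBS knockdown mice, at 173 to 237 CPM, were above both labelled-restored mice and overlapped the ascorbate mice. The G1/S median was −0.65 without mouse 21 and −0.10 without mouse 23, so its size rested on mouse 23. Relative to the PBS knockdown mice it was −0.35 in the labelled-restored and −0.0453 in the ascorbate arm. G2/M and mitosis genes did not share the pattern: 36 of 42 overlapped, 5 were higher in the labelled-restored and 1 in the ascorbate arm. Myc, the growth-promoting transcription factor, was at 383 and 218 CPM against 180 and 153 CPM, and 353, 339 and 421 CPM in the PBS knockdown mice, so that Myc was lower in the ascorbate arm than in the latter (log2 −1.16, adjusted p = 0.0414 by edgeR). Cdkn1b, the inhibitor p27, was at 110 and 129 CPM against 157 and 202 CPM. The signs of the hypoxia, NRF2, ATF4, heat shock, iron, G1/S, interferon and immediate early medians were the same in all 16 settings tried for lists, library totals included.

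**Figure D5:**
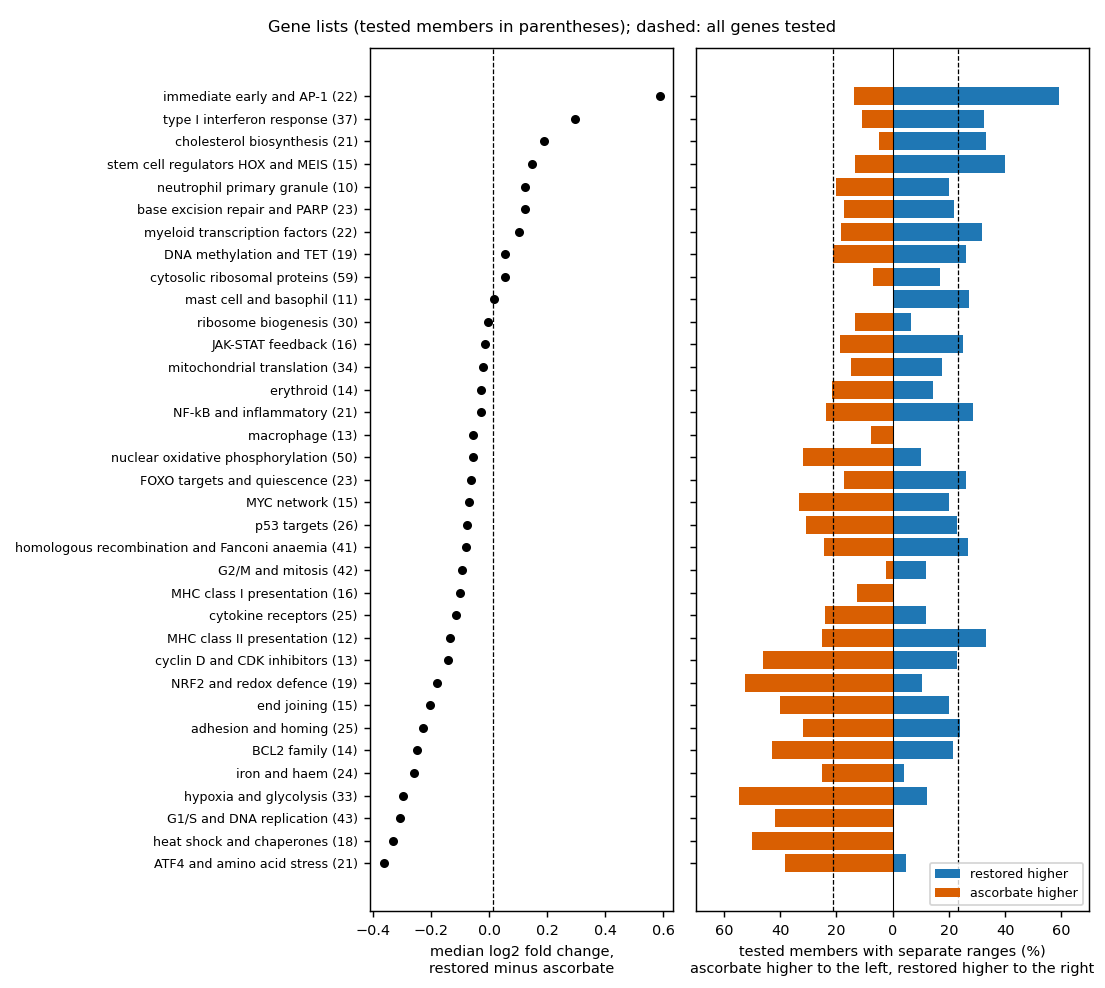
Left, median log2 fold change between the arms for the 35 gene lists with at least 10 tested members; right, percent of tested members with separate ranges, ascorbate higher to the left and labelled restored higher to the right. Dashed lines give the same over all genes tested; immediate early genes lie at the upper end (0.59) and ATF4 genes at the lower (−0.36).

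Genes of cell death differed in direction within their list. Bbc3, which codes for the death-promoting protein PUMA, was at 31.2 and 40.4 CPM in the labelled-restored mice, 73.7 and 74.1 CPM in the ascorbate mice and 19.3, 24.5 and 15.8 CPM in the PBS knockdown mice. Both arms were above the PBS knockdown mice, and the log2 difference between the arms was −1.04 (SE 0.23, adjusted p = 0.143 by edgeR). Bcl2l1, the survival gene of BCL-XL, was at 75.3 and 96.3 CPM against 54.3 and 39.4 CPM, with 60.6 to 62.0 CPM in the PBS knockdown mice. Mcl1, another survival gene, was at 187 and 278 CPM against 331 and 334 CPM. Of the 14 tested BCL2 family genes, 3 were separate and higher in the labelled-restored and 6 in the ascorbate arm. For p53 targets these counts were 6 and 8 of 26.

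DNA repair genes, which bear on PARP inhibition, the subject of the series, showed no common direction between the arms. Homologous recombination and Fanconi anaemia genes lay below the PBS knockdown mice in both arms, with medians of −0.63 in the labelled-restored and −0.55 in the ascorbate arm, and between the arms 11 of 41 were separate and higher in the former and 10 in the latter. That median was −0.08, with −0.45 without mouse 21 and 0.16 without mouse 23. Slx4, a scaffold of structure-specific nucleases, was at 22.9 and 17.2 CPM in the labelled-restored mice, 10.8 and 11.4 CPM in the ascorbate mice and 44.1, 34.6 and 38.2 CPM in the PBS knockdown mice. Slx4 was below all PBS knockdown mice in both arms. Its log2 difference from them was −0.96 in the labelled-restored arm (adjusted p = 0.0502 by edgeR). In the ascorbate arm it was −1.82 (adjusted p = 0.0124 by edgeR). Xrcc2, a gene of homologous recombination, was at 21.6 and 20.8 CPM against 12.4 and 9.95 CPM. In end joining, Prkdc, the DNA-dependent protein kinase, was at 36.5 and 17.7 CPM against 48.3 and 59.8 CPM, and Lig4, which seals the joined ends, at 2.66 and 3.84 CPM against 1.63 and 1.62 CPM. In base excision repair, 5 of 23 genes were separate and higher in the labelled-restored and 4 in the ascorbate arm. Parp1, whose product is what PARP inhibitors chiefly block, stood at 238 and 146 CPM in the labelled-restored mice, 340 and 350 CPM in the ascorbate mice and 392, 384 and 341 CPM in the PBS knockdown mice (log2 difference between the arms −0.84, SE 0.22, adjusted p = 0.159 by edgeR). Aptx, which clears failed ligation ends, was at 17.7 and 26.1 CPM against 12.2 and 9.86 CPM.

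Among genes of DNA methylation, Gadd45b, a stress gene also linked to active demethylation, was at 66.4 and 32.9 CPM against 18.8 and 18.1 CPM (log2 difference 1.43, SE 0.32). Idh2, the mitochondrial source of 2-oxoglutarate, was at 135 and 91.3 CPM against 164 and 173 CPM. Of the 19 tested genes of this list 5 were separate and higher in the labelled-restored arm and 4 in the ascorbate arm, near the share of all genes. The vitamin C transporters and glutathione recycling genes had 5 of 7 overlapping. Nuclear genes of oxidative phosphorylation leaned to the ascorbate arm by count (16 of 50 against 5) but by little in size (median −0.06), with the sign turned to 0.06 on library totals. Cytosolic ribosomal protein genes, many of which have processed copies, overlapped in 45 of 59 cases. Homeobox and other stem cell regulators had 6 of 15 genes higher in the labelled-restored and 2 in the ascorbate arm (median 0.15, but 0.04 without mouse 23); Lyl1 in that list was at 149 and 55.6 CPM against 38.4 and 51.1 CPM.

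A trend with transcript length ran through the libraries. Over 10367 genes whose length could be recovered from counts and FPKM, the log2 difference between the arms correlated with length at a Spearman rho of −0.241, a description across genes that share the same 4 libraries. With an offset for length in each library H1f0 still passed (log2 2.48, adjusted p = 0.0300 by edgeR). Other named genes became smaller or larger in log2 difference with that offset. Pdzd2 went from −1.10 to −0.756, Tnf from 2.73 to 2.62 and Soga1 from 0.884 to 0.985. Against the mean of the PBS knockdown mice, the correlation with length was −0.509 in mouse 21, −0.287 in mouse 23, −0.314 in mouse 28 and −0.126 in mouse 30. Transcript length as a cause of the differences was not tested.

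Large differences with uneven levels among mice of the same treatment were also seen. These genes were picked after their values were known. Nr3c1, the glucocorticoid receptor, showed 36.4 CPM in mouse 28 but 1.83 CPM in mouse 30, and 0.574 and 0.0505 CPM in the labelled-restored mice; the PBS knockdown mice ranged from 1.47 to 43.7 CPM. Zfp141 had no count in either labelled-restored mouse, 15.1 CPM in mouse 28 and 0.333 CPM in mouse 30. The PBS knockdown mice held 6.05, 15 and 3.68 CPM of Zfp141. Faah was at 9.30 and 2.16 CPM in the ascorbate mice and at most 0.0505 CPM in the labelled-restored mice, but ranged from 0 to 12.0 CPM in the PBS knockdown mice. In each of these genes, mice of at least 1 treatment differed widely among themselves.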

How the data were processed

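The 8 RNA-seq libraries each hold AE9a-positive cells from the spleen of a single mouse. A table of unnormalized read counts by gene symbol and a table of FPKM values were deposited by the authors. STAR, featureCounts and DESeq2 with mm10 (GRCm38) are named in the submitters' processing notes; versions and strand are not given in the sources used here. In both, 26 gene symbols had been turned into calendar dates. The library factors behind the authors' FPKM values (0.682 for mouse 28, relative) differ from the relative count totals (0.754).

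Counts were analysed in R 4.3.3 with edgeR 4.0.16 (quasi-likelihood F test, TMM, filterByExpr with a minimum count of 10, robust fit) on the 7 secondary libraries in 3 groups, contrasting the labelled-restored with the ascorbate arm. Adjustment was by Benjamini-Hochberg over all 12137 genes at 0.05. SE is the absolute log2 fold change divided by the square root of the F value. Separate ranges means that the lowest CPM of 1 arm exceeds the highest of the other. The p-values set a difference against a spread estimated from all 7 secondary libraries, the 3 PBS knockdown mice included. That spread was also moderated across genes, with a median of 9.58 degrees of freedom. Intervals are exact Poisson at 95% and cover counting error only, since no molecular identifiers were used. The genes of interest, the 44 gene lists and their tests were chosen with earlier results of these data known. Named genes are the TET and RUNX genes; per direction the 15 of smallest p with separate ranges whose higher arm averaged 5 CPM or more; per direction the 10 of largest difference on opposite sides of the PBS knockdown mice; and up to 4 per list. Predicted and clone-named genes were only counted, an exclusion widened after values had been seen. Gene positions and overlaps came from GENCODE vM21, which held 91.7% of the symbols. Of 176 genes named by rule, 60 share exonic bases with another gene. Promoters came from RefSeq. Alternatives were DESeq2 1.42.0, limma 3.58.1 on counts and on FPKM values (log2 after adding 0.1 or 1, for genes that reach 1 FPKM in 2 libraries), other scalings, filters and library sets, a length offset, and each library left out.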

Additional observations from a re-analysis of the deposited data

Results flagged for a closer look

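The primary recipient, mouse 12, enters no comparison and has no replicate. Of the 40 genes named by smallest p or by opposite sides, 37 lay outside the range of the PBS knockdown mice in that library, and 7 lay above all 7 secondary libraries, which is what drew attention to them. They were Gp1ba at 77 CPM, Slc20a1 at 63 CPM, Jun at 130 CPM, Srsf7 at 255 CPM, Rnpep at 116 CPM, Clint1 at 632 CPM and Pdzd2 at 52.9 CPM. The same shares over all genes tested were not counted, so the 37 and the 7 are not read as a trait of these genes. The opposite-sides rule also favours genes whose PBS knockdown mice lie close together. Differences of these sizes in 1 library carry no replicate check.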

How the results depend on the processing

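The number of genes past the threshold between the arms was 1 by edgeR with TMM, and also with DESeq2 size factors, with library totals, with limma voom, with a minimum count of 50 and with the length offset, H1f0 each time. It was 426 by the DESeq2 Wald test, 582 without a filter on low counts, 3 with FPKM + 0.1, 3 with FPKM + 1 (H1f0, Tnf and 2310015A10Rik in both), 3 in a fit of all 8 libraries (H1f0, Jrk and Wfikkn2) and 0 with only the 4 libraries of the arms, where 1381 genes had an unadjusted p under 0.05 and the smallest adjusted p was 0.0757. Leaving out each library in turn gave 0 to 5 calls: 4 without mouse 21, 5 without mouse 23, 0 without mouse 17 or mouse 28, and 1, Cd84 in place of H1f0, without mouse 30. Where an arm was left with 1 library, that library was assumed to vary like the other groups. Genes with separate ranges numbered 5417, 5405 with DESeq2 size factors (2694 and 2711 in the labelled-restored and ascorbate direction), 4509 on FPKM values and 7338 without a filter; without 1 library they ranged from 5369 to 9873, the high counts coming from arms reduced to 1 library. Of 175 named genes, 1 changed sign: with 1 library left out at a time, Runx1 ranged from −0.0262 (without mouse 23) to 0.103 (without mouse 21), and with the length offset it was 0.233. The medians of 30 of 44 lists changed sign in at least 1 setting. No paired analysis was possible because the arms share no mouse numbers. With 2 libraries per arm, genes with few counts, such as Perp (6 counts in mouse 21), carry the least precision.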
